A study of Mus musculus with 16 samples.

Results

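Chromosome 11 was examined as a distant partner of a pair of promoters in mouse embryonic fibroblasts, by 4C-seq, a chromosome conformation capture method that lists the restriction sites ligated to 1 chosen locus, the viewpoint. The members are the sites listed anywhere on chromosome 11 (mm9) in any of the 16 libraries: 7217 distinct positions out of 139505 on all chromosomes, which make up 14362 of 327988 library entries. Chromosome 11 carries neither viewpoint, so these are all trans contacts, meaning contacts between different chromosomes. The first viewpoint is the bidirectional promoter shared by Pole and Pxmp2 on chromosome 5. Pole encodes the catalytic subunit of a replicative DNA polymerase, and Pxmp2 a protein of the peroxisome membrane. The second is that of Cdca3, a regulator of mitotic entry, and Usp5, a deubiquitinating enzyme, on chromosome 6. Each viewpoint had 4 libraries from cells with the normal Rb1 gene (Rb1+/+) and 4 from cells with the Rb1L allele on both copies (Rb1L/L). All cells were proliferating fibroblasts from E13.5 embryos, grown to passage 4, with no treatment named. Fibroblast cultures were made as 4 numbered pairs with 1 culture of each genotype, and pair identifiers recur at both viewpoints, so 8 cultures were taken to underlie the 16 libraries. What the 2 cultures of a pair share is not stated, so p-values measure the spread between these cultures, which may be partly technical. Chromosome 11 was chosen with its lower Rb1L/L share at the Cdca3 viewpoint already known. It was selected on the percent of trans sites per chromosome in those Cdca3 libraries. That contrast is therefore given as a description, without a test.

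Rb1 encodes pRb, which holds back entry into S phase by binding E2F transcription factors, and the L mutation alters the cleft through which pRb binds proteins with an LXCXE motif. The title of the series names condensin II, a ring-shaped complex that folds chromatin, as a partner that pRb brings to promoters. Chromosomes occupy territories in the nucleus, and gene-rich active segments of different chromosomes are known to lie near each other more often than inactive ones. Mouse chromosome 11 is a gene-rich chromosome that carries, among others, Trp53, Brca1 and the Hoxb genes. Gene positions in mm9 were not used here, so contacts are given by position alone.

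Libraries listed between 6485 and 39650 sites over all chromosomes. The lists hold no read numbers, so depth is unknown, and yield is given here as the count of listed sites. Trans sites numbered 2616 to 8899 at Pole and 10537 to 30028 at Cdca3, so yields of the viewpoints did not overlap. The fibroblast identity could not be checked, since the libraries hold no expression values.

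Contacts on chromosome 11 were gathered in blocks, mostly in the distal part of the chromosome. A block was defined as at least 2 adjacent 500-kb windows that each held a site in at least 6 of the 8 libraries of either viewpoint, with the genotypes pooled. This gave 11 blocks with 72 windows and 36 Mb, numbered from the centromere. The proximal part held block 1 (3.5 to 6 Mb). The next blocks began after a stretch of 47.5 Mb: block 2 (53.5 to 54.5 Mb), block 3 (59 to 60.5 Mb), block 4 (61.5 to 62.5 Mb) and block 5 (68 to 70.5 Mb). Block 6 covered 74.5 to 80 Mb, block 7 covered 83.5 to 85 Mb and block 8 covered 86 to 87 Mb. The longest, block 9, covered 94 to 103.5 Mb, and was followed by block 10 (105 to 108 Mb) and block 11 (114.5 to 121.5 Mb). The largest end of a called region on the chromosome was 121841037. All 72 windows met the threshold at Cdca3 and 10 of them also did at Pole, so the block map was set by the Cdca3 libraries.

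The blocks held most of the contacts at both viewpoints. On average 88.9% of the chromosome 11 share lay in blocks at Pole and 90.1% at Cdca3. The stretch from 6 to 53.5 Mb held 199 of the 14362 entries, in 8 of the 16 libraries. The stretch from 108 to 114.5 Mb, between blocks 10 and 11, held 14 entries in 5 libraries. Of the 243 windows of the chromosome, 138 held no site in any library. The windows around 80 to 83.5 Mb and 87 to 94 Mb were intermediate, with 299 and 386 entries in 11 libraries each.

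Shares per block are given as percent of a library's trans sites, excluding chromosome 5 for Pole and chromosome 6 for Cdca3. At Cdca3, block 9 held the largest share, 1.71% ± 0.298 (SD, n = 8). Block 11 followed with 1.40% ± 0.216, block 6 with 1.13% ± 0.387 and block 10 with 0.608% ± 0.187. The smallest was block 2, with 0.0955% ± 0.0836 and a site in 6 of 8 libraries. Per Mb of block the leading values lay close together, 0.205% for block 6, 0.203% for block 10 and 0.200% for block 11.

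At Pole, block 11 held the largest share, 1.62% ± 1.02 (SD, n = 8), and was the only block with a site in all 8 libraries. Block 9 had 0.923% ± 0.560 and block 6 had 0.906% ± 0.495, each with a site in 7 of 8 libraries. Block 10 followed with 0.368% ± 0.343, in 5 libraries. Blocks 9 and 6 differed by less than their SD, and the lead of block 11 over block 9 was smaller than the SD of block 11. Block 3 held no Pole site in any library. Per Mb, block 11 reached 0.231% and block 6 0.165%.

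Pole libraries differed from each other in which blocks they held. In the Rb1L/L library of pair 1, block 11 held 3.94% of trans sites and block 2 held 0.0765%, and the 9 other blocks held none. Its chromosome 11 sites fell in 12 windows, against 47 to 51 in the other Rb1L/L libraries. In the Rb1L/L library of pair 2, block 1 held 0.874%, block 4 held 0.608% and block 8 held 0.608%, and block 5 held none. With 121 to 584 sites on the chromosome per Pole library, an empty block means that no site was listed, not that contact was absent. At Cdca3, the Rb1L/L library of pair 1 had no site in blocks 2, 4, 7 and 8, and that of pair 2 had none in blocks 2 and 8. The other 6 Cdca3 libraries had a site in every block, though the Rb1L/L library of pair 4 held only 0.00497% in block 7.

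Windows recurred between libraries far more than single sites did. At Cdca3, 102 windows held a site in at least 1 library, and 30 of them (29.4%) did so in all 8. Of the 6585 distinct Cdca3 sites, 3421 (52.0%) were listed in a single library, 430 (6.53%) in 4 or more and 0 in all 8. At Pole, 89 windows held a site and 1 did so in all 8 libraries, while 1833 of 2246 distinct sites (81.6%) were listed in a single library and 11 (0.490%) in 4 or more. Listing of an exact site in 4 or more libraries was thus rare, while sharing of a window was common at Cdca3. A window is listed in at least as many libraries as any site in it, so the order of these levels was fixed by the definition. Every listed site lies inside a region that was called for its library, and the part of region length in the recurrence of windows was not tested.

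Few exact sites recurred in 4 or more libraries inside the most recurrent stretches either. In the stretches called in all 8 Cdca3 libraries, 4435 distinct sites were listed, of which 45.0% were in a single library and 8.66% in 4 or more. The most shared site of the chromosome, at 106032972 to 106032977 in block 10, was listed in 10 of 16 libraries, 4 from Pole and 6 from Cdca3. The next, at 115591751 to 115591756 in block 11, was listed in 9, with 6 from Pole and 3 from Cdca3. Both were singled out after their values were seen.

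**Figure D1:**
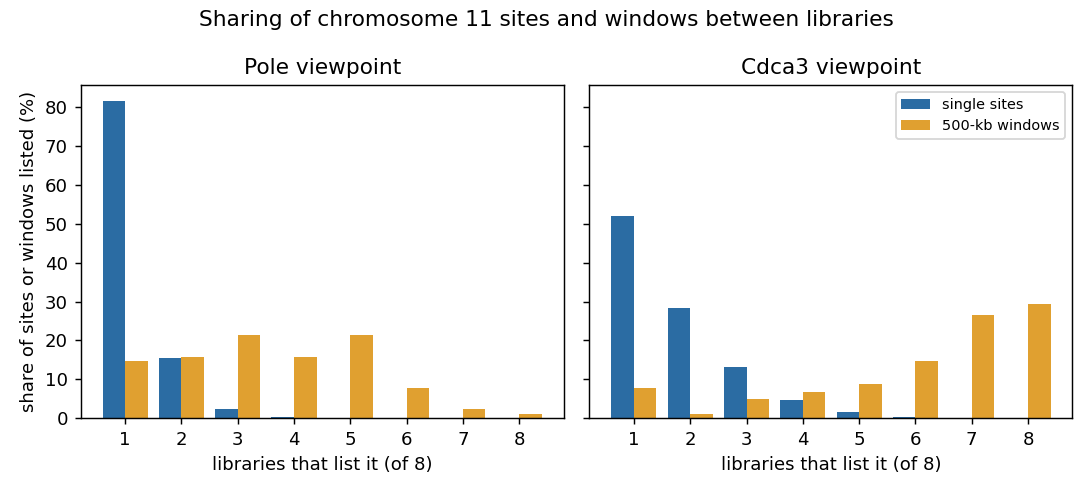
Percent of distinct chromosome 11 sites (blue) and of 500-kb windows with a site (yellow) by the number of libraries that list them (1 to 8), for Pole (left) and Cdca3 (right). Single sites pile up at 1 library, 81.6% at Pole and 52.0% at Cdca3, while 29.4% of Cdca3 windows recur in all 8.

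At Cdca3, a smaller share of trans sites lay on chromosome 11 in Rb1L/L cells. The Rb1+/+ libraries of pairs 1 to 4 had 7.72, 8.35, 7.97 and 7.90% of their trans sites there, with a mean of 7.99% ± 0.263 (SD, n = 4). Those of Rb1L/L cells had 4.54, 6.61, 7.56 and 6.86%, with a mean of 6.39% ± 1.30. All 4 Rb1L/L values lay below all 4 Rb1+/+ values, and the Rb1L/L values were spread more widely.

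The Rb1L/L share was 1.60 percentage points below the Rb1+/+ share by subtraction of means (difference -1.60), a relative change of -20.0%. Within pairs the difference was -3.19, -1.74, -0.414 and -1.04 points. Pair 1 had the largest gap, and without its Rb1L/L library the difference was -0.979, a change of over 1.5 times. Without both pair 1 libraries it was -1.07. Every Rb1L/L library lay below every Rb1+/+ library for 2 of the 19 trans chromosomes (10.5%), chromosomes 11 and 2, and above for 1 (5.26%), the X. Chromosome 11 was chosen for this difference, so nothing is read from that count.

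Yield moved with genotype in no fixed direction. The Rb1L/L library listed 1.71 and 1.53 times the trans sites of its Rb1+/+ partner in pairs 2 and 3, and 0.763 and 0.937 times in pairs 1 and 4. The share was lower in Rb1L/L in all 4 pairs. The number of listed chromosome 11 sites itself was 1066, 1466, 1448 and 1696 in Rb1+/+ and 478, 1984, 2106 and 1379 in Rb1L/L, so these counts overlapped between genotypes. Over the 8 Cdca3 libraries, the share and the number of trans sites had a Pearson r of 0.279 and a Spearman rho of -0.0952, given as a description. Without the Rb1L/L libraries of pairs 2 and 3, which lie farthest from the median yield, r rose to 0.667. The part of yield in the lower share was not tested.

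The authors' called regions gave the same order. Regions on chromosome 11 made up 7.01, 6.99, 6.04 and 6.0% of the base pairs of all trans regions in Rb1+/+ and 5.66, 5.54, 5.69 and 5.68% in Rb1L/L. These groups did not overlap either, and the difference of means was -0.868 points. The regions come from the libraries on which the chromosome was chosen, and every listed site lies inside them. They describe the same difference again and are no separate support. The regions numbered 8 to 12 per Cdca3 library and covered 35.7 to 55.1 Mb of the chromosome, and the Rb1L/L library of pair 1 covered least.

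**Figure D2:**
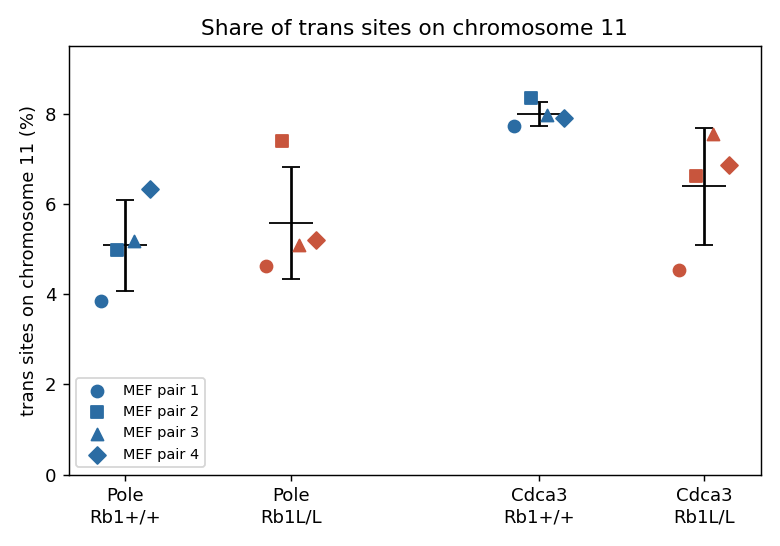
Percent of each library's trans sites on chromosome 11 (vertical axis from 0) by viewpoint and genotype, with 1 point per library, a marker shape per MEF pair, and the mean ± SD in black (n = 4). At Cdca3 the 4 Rb1L/L points lie between 4.54 and 7.56%, below the 4 Rb1+/+ points, and at Pole the genotypes overlap.

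The Cdca3 difference was spread over most blocks, with the largest parts in blocks 6, 11, 9 and 5. Mean shares were lower in Rb1L/L in 9 blocks and higher in 2. Block 6 (74.5 to 80 Mb) accounted for 30.2% of the whole difference, block 11 (114.5 to 121.5 Mb) for 22.3%, block 9 (94 to 103.5 Mb) for 17.2% and block 5 (68 to 70.5 Mb) for 13.9%. The part of the chromosome outside the blocks differed by 0.000592 points. Without the Rb1L/L library of pair 1 it was 0.203 points higher in Rb1L/L, so that near balance rested on 1 library, and the blocks together then differed by more than the whole chromosome.

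In block 6, the Rb1+/+ libraries of pairs 1 to 4 held 1.64, 1.41, 1.12 and 1.30% of trans sites and the Rb1L/L libraries 0.351, 1.25, 1.05 and 0.895%. The difference of means was -0.481 points, or -0.303 without the Rb1L/L library of pair 1. All 4 pairs were lower in Rb1L/L, but the groups overlapped.

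In block 11, the Rb1+/+ libraries held 1.71, 1.62, 1.53 and 1.44% and the Rb1L/L libraries 1.10, 1.22, 1.20 and 1.36%. Here the groups did not overlap. The difference was -0.355, and -0.316 without the Rb1L/L library of pair 1, so this block leaned least on that library among the 4 largest parts. Without it, block 11 accounted for 32.3% of the remaining difference and block 6 for 30.9%.

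In block 5, the Rb1+/+ libraries held 0.623, 0.717, 0.512 and 0.540% and the Rb1L/L libraries 0.171, 0.463, 0.495 and 0.378%. These groups did not overlap, and the relative change was -37.0%. In block 9, the longest, the Rb1+/+ libraries held 2.14, 2.14, 1.62 and 1.49% and the Rb1L/L libraries 1.27, 1.72, 1.66 and 1.63%. The gap in block 9 came from pairs 1 and 2, and pairs 3 and 4 were higher in Rb1L/L.

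The 2 blocks with higher Rb1L/L means no longer had them without the pair 1 Rb1L/L library. Block 10 (105 to 108 Mb) held 1.05% in the Rb1L/L library of pair 1 against 0.486 to 0.553% in the other Rb1L/L libraries and 0.464 to 0.619% in Rb1+/+. Its difference was 0.101 points, and -0.0308 without that library. Block 3 (59 to 60.5 Mb) likewise changed from 0.0404 to -0.0176. Among the small blocks, block 7 held 0.290, 0.199, 0.242 and 0.237% in Rb1+/+ and 0, 0.250, 0.287 and 0.00497% in Rb1L/L, so its lower mean came from pairs 1 and 4.

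Of the 11 blocks, 2 (blocks 5 and 11) had every Rb1L/L library below every Rb1+/+ library, against 5.39% of the 167 trans blocks tested at Cdca3. The opposite order was found in 0 of the 11, against 1.8% of the 167. The fitted log2 differences, Rb1L/L over Rb1+/+, were -0.76 ± 0.33 (SE) for block 5, -0.76 ± 0.35 for block 6, -0.22 ± 0.16 for block 9 and -0.37 ± 0.11 for block 11. At Cdca3, limma called 0 of the 167 blocks, so none of these differences was called. The median over the 11 blocks was -0.76 and that over all 167 was -0.13. Without the Rb1L/L library of pair 1 these medians were -0.36 and -0.10. These values come from the contrast that chose the chromosome, and nothing is read from their number.

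**Figure D3:**
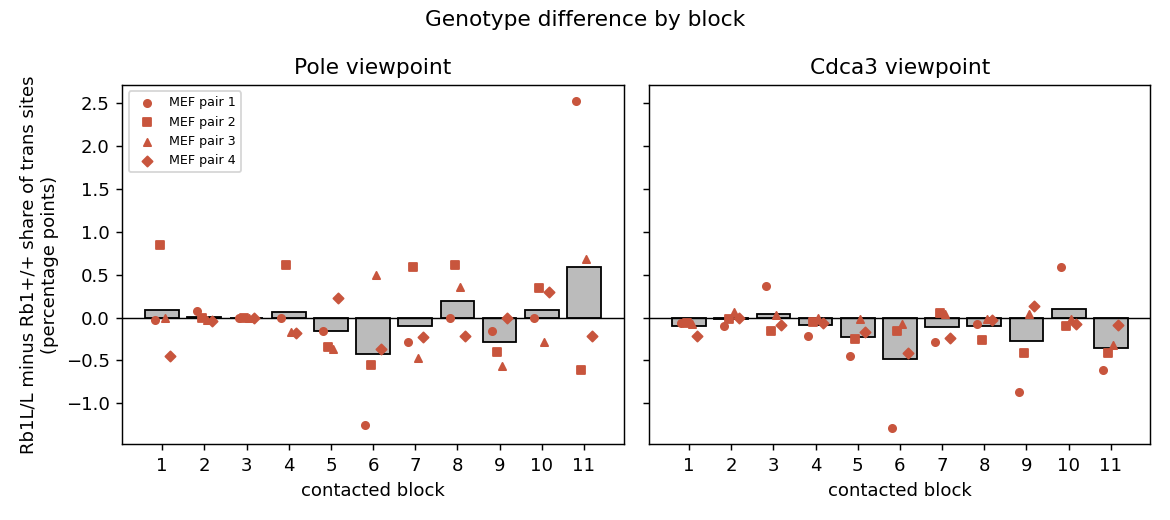
Difference in share of trans sites, Rb1L/L minus Rb1+/+ in percentage points, for blocks 1 to 11 at Pole (left) and Cdca3 (right), with bars for the difference of group means and points for the 4 MEF pairs. At Cdca3 the bars of blocks 5, 6, 9 and 11 reach -0.222, -0.481, -0.275 and -0.355, and at Pole the bars point both ways with pair 1 far above 0 in block 11.

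Among single windows at Cdca3, the largest drop was at 83.5 to 84 Mb in block 7. It held 20, 27, 20 and 22 sites in Rb1+/+ and 0, 16, 24 and 0 in Rb1L/L, which is 1.28 ± 0.253 (SD, n = 4) and 0.349 ± 0.424 per 1000 trans sites. The next was 117.5 to 118 Mb in block 11, with 1.51 ± 0.285 and 0.658 ± 0.665 per 1000. The difference there came from the Rb1L/L libraries of pairs 1 and 2, which listed 0 and 6 sites.

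The windows at 77 to 77.5 Mb and 77.5 to 78 Mb, adjacent in block 6, had 1.31 ± 0.227 and 1.44 ± 0.218 per 1000 in Rb1+/+ and 0.604 ± 0.519 and 0.762 ± 0.508 in Rb1L/L. The window at 100.5 to 101 Mb in block 9 had 1.55 ± 0.484 against 0.893 ± 0.585. The 3 largest increases were smaller than these drops: 0.426 per 1000 at 107 to 107.5 Mb, 0.358 at 60 to 60.5 Mb and 0.355 at 85 to 85.5 Mb.

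Of 100 chromosome 11 windows with at least 8 sites at Cdca3, 5 had every Rb1L/L library below every Rb1+/+ library (5.00%), against 1.91% of the 1732 windows tested on all trans chromosomes. They were 69 to 69.5, 75.5 to 76, 77 to 77.5, 77.5 to 78 and 83.5 to 84 Mb, in blocks 5, 6 and 7. The opposite order was found in 0 of the 100, against 0.808%. Limma called 0 of the 1732 windows at Cdca3. The fitted difference was below 0 in 66 of the 100 windows, with a median of -0.38 on the log2 scale against -0.00 over all windows. Without the Rb1L/L library of pair 1 these medians were -0.19 and 0.16. The rule for choosing the chromosome used this contrast, and nothing is read from these counts.

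At Pole, whose libraries came from the same cultures but were not used in the choice, no genotype difference in the chromosome 11 share was detected. The Rb1+/+ libraries of pairs 1 to 4 had 3.84, 4.99, 5.17 and 6.32% of trans sites on chromosome 11, and the Rb1L/L libraries 4.63, 7.40, 5.09 and 5.19%. The means were 5.08% ± 1.02 and 5.58% ± 1.24 (SD, n = 4 each), and the groups overlapped. The difference was 0.499 points, with an exact two-sided permutation p of 0.571 over 70 assignments (smallest possible 0.0286) and a 95% interval of -1.65 to 3.55 from inverting that test. The Rb1L/L share was lower in 2 of 4 pairs. The interval includes the Cdca3 difference of -1.60, so these libraries could not tell such a change from none.

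The sign of the Pole difference rested on 1 library. Without the Rb1L/L library of pair 2 it was -0.109, and measured in base pairs of called regions it was -0.481 (exact permutation p = 0.600). Share and yield moved together over the 8 Pole libraries with a Pearson r of 0.682 (exact permutation p = 0.0577, adjusted over 2 viewpoints 0.115) and a Spearman rho of 0.690 (exact permutation p = 0.0694). Without the 2 libraries farthest from the median yield, r was 0.431. The part of yield in the share was not tested beyond this.

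Across blocks, the Pole genotype difference went both ways. Most of the net difference, 0.425 points or 85.3%, lay in the part of the chromosome outside the blocks. Without the Rb1L/L library of pair 1 that outside part differed by 0.490 points. Block 11 held 1.42, 1.99, 0.871 and 1.01% in Rb1+/+ and 3.94, 1.38, 1.55 and 0.788% in Rb1L/L, and the difference of 0.594 points came from pair 1 (-0.0808 without its Rb1L/L library). Block 9 held 0.157, 1.35, 1.60 and 1.15% in Rb1+/+ and 0, 0.950, 1.03 and 1.14% in Rb1L/L, a difference of -0.282 that was lower in 4 of 4 pairs, and -0.0210 without the Rb1L/L library of pair 1. Block 6 held 1.26, 1.18, 0.506 and 1.52% in Rb1+/+ and 0, 0.621, 1.00 and 1.16% in Rb1L/L. Block 5 held 0.157, 0.344, 0.365 and 0.263% in Rb1+/+ and 0, 0, 0 and 0.495% in Rb1L/L. Its fitted log2 difference was -3.60 ± 2.17 (SE, limma adjusted p = 0.876), and -0.03 with sites at a deposited value under 0.01. The Rb1L/L mean was lower at both viewpoints in 4 blocks (5, 6, 7 and 9), higher at Pole and lower at Cdca3 in 5 (1, 2, 4, 8 and 11), and higher at both in block 10. On the fitted log2 scale, however, blocks 1, 2 and 4 were lower in Rb1L/L at Pole (-0.18, -0.02 and -0.33). This tally thus depends on the measure.

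Of 155 trans blocks tested at Pole, limma called 0 (0.00%), with 2 at an unadjusted p under 0.05 and neither on chromosome 11. The 10 chromosome 11 blocks with enough sites had a median log2 difference of -0.25, against -0.07 over all blocks. Leaving out 1 library moved that median from -1.68 to 0.28. Of 1346 windows, limma called 0 (0.00%), with 17 at an unadjusted p under 0.05, of which 1 lay on chromosome 11. Of the 71 chromosome 11 windows tested, 32 were lower and 39 higher in Rb1L/L, with a median of 0.18 against 0.06 over all (-0.26 to 0.46 with 1 library left out). Genotype groups that did not overlap were found in 0 of these 71 windows in either direction, against 0.446% lower and 0.371% higher over all windows. The same held for 0 of the 11 blocks, against 0.613% of Pole blocks lower.

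The highest log2 difference of a chromosome 11 window at Pole rested on sites in 3 libraries. At 118 to 118.5 Mb the log2 difference was 3.54 ± 1.67 (SE), with 0 sites in all 4 Rb1+/+ libraries and 6, 21, 13 and 0 sites in the Rb1L/L libraries. The windows at 117 to 117.5 and 116.5 to 117 Mb, also in block 11, followed with 2.76 ± 1.76 and 2.44 ± 1.67. The lowest were 97 to 97.5 Mb (-2.64 ± 1.75), 68.5 to 69 Mb (-2.45 ± 1.75) and 120.5 to 121 Mb (-2.12 ± 1.74). All 6 had an adjusted p of 0.940. The median chromosome 11 window at Pole had a 95% interval of ± 3.22 on the log2 scale, so changes within that were not detectable.

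The viewpoints reached the same windows of chromosome 11. Of the 89 windows with a Pole site, 86 (96.6%) also held a Cdca3 site, and these were 84.3% of the 102 Cdca3 windows. On the 17 other chromosomes compared, the first value was 76.1 to 97.3% (median 85.1%) and the second 63.4 to 87.0% (median 79.5%). Chromosome 11 thus lay within the range of the others. Of the 2246 distinct Pole sites, 1614 (71.9%) were also listed at Cdca3, which is 24.5% of the 6585 Cdca3 sites. Of the Pole sites of a culture, 85.1 to 100% lay inside the regions called for the Cdca3 viewpoint in the same culture (median 99.9%). Conversely 24.3 to 89.3% of Cdca3 sites lay inside the Pole regions, which covered less of the chromosome (8.60 to 46.0 Mb).

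Levels per window followed each other across the chromosome. Over the 243 windows, mean sites per 1000 at Pole and Cdca3 had a Pearson r of 0.795 and a Spearman rho of 0.892. On the 17 other chromosomes compared, r was 0.631 to 0.880 (median 0.805) and rho was 0.630 to 0.888 (median 0.814), so r lay within the range of the others and rho just above it. Windows empty at both viewpoints raise such values. Among the 105 windows with a site at either viewpoint, r was 0.645 and rho 0.682, against medians of 0.706 and 0.642 elsewhere. Neighbouring windows share regions, and both viewpoints share cultures and the positions of HindIII sites, so these are descriptions.

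Over the 11 blocks, mean shares at the viewpoints had r = 0.893 and rho = 0.855, in part because long blocks hold more sites. Per Mb the values were 0.527 and 0.455. The window at 120 to 120.5 Mb in block 11 was the only one with a site in all 16 libraries. It had the largest mean at both viewpoints, 1.96 ± 2.33 (SD, n = 8) per 1000 trans sites at Pole and 1.52 ± 0.485 at Cdca3.

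The other leading windows overlapped in part. At Pole they were 79.5 to 80 Mb (1.93 ± 1.67), 119 to 119.5 Mb (1.93 ± 2.40), 119.5 to 120 Mb (1.86 ± 1.91) and 80 to 80.5 Mb (1.64 ± 1.84). At Cdca3 they were 106.5 to 107 Mb (1.42 ± 0.363), 119 to 119.5 Mb (1.40 ± 0.512), 106 to 106.5 Mb (1.36 ± 0.287) and 75.5 to 76 Mb (1.33 ± 0.438). The SDs at Pole were near or above the means, so the order of Pole windows is not resolved.

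The called regions had a common core in block 11. Stretches called in all 16 libraries covered 2.49 Mb, at 118244274 to 118893500 and 119149814 to 120993898. These are also the stretches called in all 8 Pole libraries. The Cdca3 libraries had 13 stretches in common, 29.7 Mb in all, the longest from 117272542 to 121679151. Within a viewpoint, the overlap of the regions of library pairs (base pairs covered in both over those covered in either) was 40.3% ± 18.2 (SD, 28 pairs) at Pole and 80.6% ± 11.6 at Cdca3.

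The regions of both viewpoints overlapped by 54.0% ± 20.3 (SD, n = 8) in the same culture and 51.1% ± 20.5 (24 combinations) in different cultures of the same genotype. The difference of 2.84 points had an exact two-sided permutation p of 0.109 over 576 pairings. The true pairing of cultures was thus not told apart from other pairings within genotype. The 24 combinations reuse the same 16 libraries.

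Chromosome 11 took a smaller share at Pole than at Cdca3. Counted over sites on neither chromosome 5 nor 6, so that both viewpoints have the same denominator, the Pole share was 5.70% ± 1.18 (SD, n = 8) and the Cdca3 share 7.74% ± 1.30. The Pole share was lower in 7 of 8 cultures, and the exception was the Rb1L/L culture of pair 2, with 7.93% at Pole and 7.05% at Cdca3. The mean difference was -2.04 points ± 1.74 (SD), with an exact sign-flip permutation p of 0.0234 over 256 assignments (smallest possible 0.00781) and a 95% interval of -3.48 to -0.450. The Cdca3 shares on which the chromosome was chosen are 1 side of this comparison. The p-values and the interval are therefore given as a description, and nothing is read from them. As base pairs of regions the difference was -0.573 (exact permutation p = 0.234). Without pair 1, 3 or 4 the difference was -1.97, -1.77 and -2.12 (exact permutation p = 0.0625, 0.0938 and 0.0938). Since the yields of the viewpoints did not overlap, viewpoint and yield cannot be told apart here.

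At the level of windows, those called between viewpoints were all lower at Pole. With limma and the culture as a block, 63 of 1573 windows on the chromosomes compared were called at an adjusted p under 0.05, all lower at Pole (4.01%). On chromosome 11, 7 of 93 were called (7.53%). Without pair 1, 2, 3 or 4 this count was 6, 1, 1 and 2, against 75, 4, 7 and 9 over all windows tested. The chromosome 11 count thus rests on pairs 2, 3 and 4 all being present, as does the count over all windows. All 93 reached the minimum of 16 sites through the Cdca3 libraries alone, and 61 of them also through the Pole libraries alone, so windows low at Cdca3 were hardly admitted. The direction and number of these calls are therefore no support for a difference. The median log2 difference, Pole over Cdca3, was -1.65 on chromosome 11 and -1.07 over all 1573 windows. When 0.5 was added to each count without scaling it to yield, these medians were -0.88 and -0.12. In that setting 56 windows were called over all chromosomes, 47 of them higher at Pole, and the 2 on chromosome 11 were lower at Pole.

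Block 3 (59 to 60.5 Mb) held listed sites at the Cdca3 viewpoint and none at Pole. None of its 3 windows held a Pole site in any of 8 libraries. They entered the block map and the fit through Cdca3 sites alone, so their values are given without a test. The window at 59.5 to 60 Mb held 5, 23, 19 and 30 Cdca3 sites in Rb1+/+ and 23, 30, 26 and 24 in Rb1L/L, or 1.27 ± 0.562 (SD, n = 8) per 1000 sites off chromosomes 5 and 6. The window at 60 to 60.5 Mb had 0.577 ± 0.443 per 1000 at Cdca3, and that at 59 to 59.5 Mb had 0.562 ± 0.481. No fold is given where all Pole libraries are at 0.

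Of the 7 called windows, 4 held no Pole site, namely the 3 of block 3 and 93.5 to 94 Mb just before block 9. The 3 others lay in blocks 5, 6 and 9 and held few Pole sites. At 78 to 78.5 Mb, 1 Pole library listed 4 sites and the other Pole libraries 0, and the mean per 1000 was 0.0608 ± 0.172 at Pole and 1.24 ± 0.551 at Cdca3. At 95.5 to 96 Mb the means were 0.0153 ± 0.0431 and 1.01 ± 0.546. At 69 to 69.5 Mb they were 0.130 ± 0.193 and 1.16 ± 0.418.

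**Figure D4:**
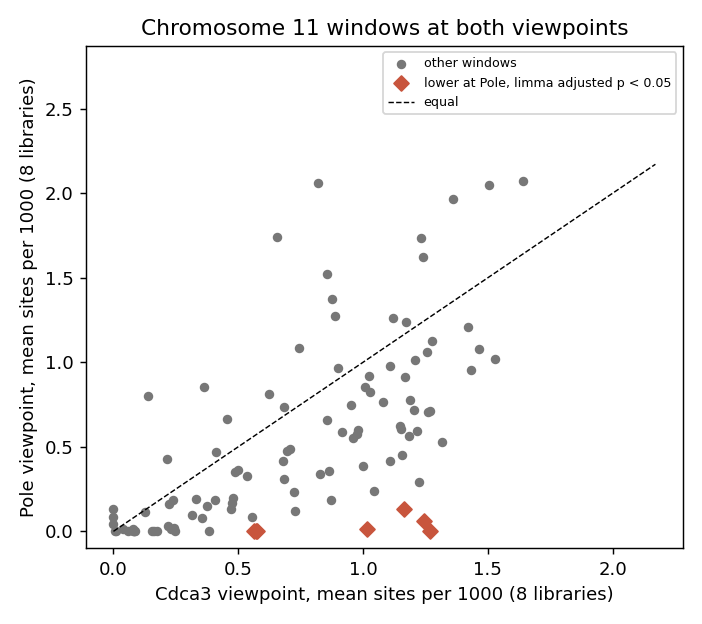
Mean sites per 1000 sites off chromosomes 5 and 6 in each 500-kb window of chromosome 11, Cdca3 on the horizontal and Pole on the vertical axis (8 libraries each), with the dashed line marking equal values and red diamonds the 7 windows called lower at Pole by limma. The called windows lie at 0 to 0.130 on the Pole axis, while most other windows rise together at both viewpoints.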

How the data were processed

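Each of the 16 libraries had 2 deposited lists. One holds sites, mostly 6-bp intervals (90.1%, up to 20 bp), with a last column of values below 0.05 that the authors deposited as a p-value or a q-value, without saying which. The other holds the regions the authors called, without a score. Per the submitters' processing notes, coordinates are those of mm9. For aligner and caller, nothing is given in the sources used here. Coordinates are 1-based.

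Sites were counted per 500-kb window in Python 3.11.15 (pandas 2.3.3, numpy 2.4.6). Windows and blocks on all trans chromosomes were fitted in R 4.3.3 using limma 3.58.1 (trended eBayes, Benjamini-Hochberg adjustment) on log2 of sites plus 0.5, that 0.5 scaled to the library's yield, per 1000 trans sites. Windows needed at least 8 sites over 8 libraries, or 16 over 16 between viewpoints, and the code was tested on simulated data. Single values were compared by exact permutation tests written in Python, with scipy 1.17.1 loaded. Fold changes of windows with empty libraries depend on the added 0.5.

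Named were all blocks, the 5 windows with the largest mean per viewpoint, the 5 lowest and 3 highest genotype differences at Cdca3, the 3 lowest and 3 highest at Pole, and the 5 lowest viewpoint differences among those called. The windows whose genotype groups do not overlap and the remaining called windows were named after their values were seen. The members and lists were chosen with earlier results of these data known. Gene positions and sequences were not used here.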

Additional observations from a re-analysis of the deposited data

Results flagged for a closer look

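In groups of 4 libraries, 50 sets of values were searched for a library far from the other 3. Chance gives such a library in about 1 in 20 sets of normally spread values. That rate does not hold where a block is empty in the other 3, since any listed site then sets a library apart. The number found is therefore not set against it. The search found 9, of which 7 were at Pole, where libraries list fewest sites. In the Rb1L/L library of pair 1 at Pole, 12 windows held a site against 47 to 51 in the other Rb1L/L libraries, and block 9 held 0% of trans sites against 0.950 to 1.14%. In the Rb1L/L library of pair 2 at Pole, block 1 held 0.874% against at most 0.0464%, and block 4 held 0.608% against at most 0.0155%. In the Rb1L/L library of pair 4 at Pole, block 5 held 0.495% against 0 in the others. In the Rb1+/+ library of pair 4 at Pole, block 1 held 0.493% against at most 0.0314%, and block 8 held 0.229% against 0. At Cdca3, the Rb1+/+ library of pair 1 held 0.0797% in block 8 against 0.252 to 0.259%, and the Rb1L/L library of pair 1 held 1.05% in block 10 against 0.486 to 0.553%. Why these libraries stand apart was not tested.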

How the results depend on the processing

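The Cdca3 difference kept its sign in every setting run, from -1.99 to -0.979 points when 1 library was left out, -1.28 with sites at a deposited value under 0.01, -0.890 as a share of all sites and -0.868 in region base pairs. The Pole difference ran from -0.109 to 0.914 with 1 library left out and was 1.33 with sites under 0.01 and -0.481 in region base pairs. The viewpoint difference, given as a description, ran from -2.27 to -1.77 without 1 pair (exact permutation p 0.0313 to 0.0938, smallest possible 0.0313). It was -3.12 with sites under 0.01 (exact permutation p = 0.0156) and -0.573 in region base pairs. The 7 chromosome 11 windows called between viewpoints became 2 with an unscaled 0.5, 24 with sites under 0.01, 3 with no replicate block, and 1 to 6 without 1 pair. Over all windows tested, the 63 calls of 1573 became 56 of 1573, 184 of 1242, 13 of 1573, and 4 to 75 without 1 pair. For the Pole block log2 differences, leaving out 1 library changed the sign in block 1 (-1.62 to 0.95), block 2 (-0.72 to 0.42), block 4 (-1.74 to 0.46, and 1.42 with sites under 0.01), block 7 (-2.35 to 0.13), block 9 (-2.15 to 0.38) and block 11 (-0.0740 to 0.70). The cause was not tested. Genotype calls at Pole stayed at 0 in every setting run. The chromosome 11 block median at Cdca3 (-0.76) was -0.26 with sites under 0.01 and -0.19 with blocks present in 8 of 8 libraries.

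With the pair number as a replicate block, the Pole difference was 0.499 points (exact permutation p = 0.750), the Cdca3 difference -1.60, and 0 windows and 0 blocks were called at Pole. Window deviations of same-numbered libraries correlated by 0.041 to 0.135 at Cdca3 and -0.054 to 0.128 at Pole, so the values do not settle whether the cultures of a pair deviate together, and what they share is not stated.

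Depth is unknown, so the lists limit what can be seen through their length, which was shortest at Pole. Leaving out the pair 1 libraries and chromosomes 5 and 6 was chosen after seeing the data. The latter gave a Cdca3 difference of -1.75.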
